A study of Ictidomys tridecemlineatus with 15 samples.

Results

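The 10 genes described here encode the enzymes that turn a neuropeptide precursor into an active hormone, the small proteins that regulate those enzymes, and the granins that fill the secretory granule. They are the rows with the symbols Pcsk1, Pcsk2, Pcsk1n, Cpe, Pam, Chga, Chgb, Scg2, Scg3 and Scg5, and all 10 were present among the 16993 genes of the table. They were measured by RNA sequencing of the supraoptic nucleus, a hypothalamic nucleus of large neurosecretory neurons, dissected by hand from brain slices of thirteen-lined ground squirrels. The animals were active outside the hibernation season, torpid within it, or in interbout arousal (IBA), the short warm phase between bouts of torpor, with 5 libraries from each state. The labels name no genotype, treatment, sex, age or time of day, and the slices held glia and vessels as well as neurons, so a lower transcript level can mean fewer cells of a type or less RNA per cell, which cannot be told apart.

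Magnocellular neurons make their hormones as long precursors that are cut inside granules on the way to the nerve endings. The convertases encoded by Pcsk1 and Pcsk2 cut after pairs of basic residues, carboxypeptidase E (Cpe) trims the exposed basic residues, and peptidylglycine alpha-amidating monooxygenase (Pam) adds the terminal amide that many peptides need for activity. Pcsk1n encodes proSAAS, an inhibitor of the Pcsk1 convertase, and Scg5 encodes 7B2, the chaperone that Pcsk2 needs to mature. Chromogranins A and B (Chga, Chgb), secretogranin II (Scg2) and secretogranin III (Scg3) are acidic proteins that aggregate in the trans-Golgi network and help to form and load granules.

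Levels are given as normalised CPM, which are read counts scaled to library size (CPM) and by a further factor per library. They are not divided by transcript length, so levels are not compared between genes. The libraries held 15844561 to 26113341 reads each, and a member had from 88 reads (Chga) to 51656 reads (Scg2) in a library. Differences are of mean log2(value + 1), with their standard error (SE). They understate the change of low genes and were tested with limma-trend, whose p-values were adjusted over the 15501 genes that passed a filter on low values, all 10 members among them. Torpor libraries 4 and 5 lay farthest from the active libraries on the leading principal component, at 39.3 and 34.9. Active library 4 stood apart there as well, at −51.1, beside −20.6 to −16.2 in the other active libraries. Torpor library 2 was the most extreme on the second component, at −47.5. Transcripts of magnocellular neurons, looked up after the values were seen, were present in each library. The transcription factor genes Otp and Sim1 stood at 89.5 to 193 and 42.4 to 92.7 normalised CPM, and the prodynorphin gene Pdyn at 203 to 674. The anterior pituitary, another tissue rich in granules, was represented by Tshb, a subunit of thyrotropin, at 3.97 to 9.66, which did not pass the test in any comparison.

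The means of Pcsk1 and of its inhibitor Pcsk1n stood in different orders across the states. Pcsk1 was highest in active animals, intermediate in torpor and lowest in IBA, while Pcsk1n was lowest in active animals, intermediate in IBA and highest in torpor. Only the rise of Pcsk1n in torpor passed the test across all genes.

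**Figure D1:**
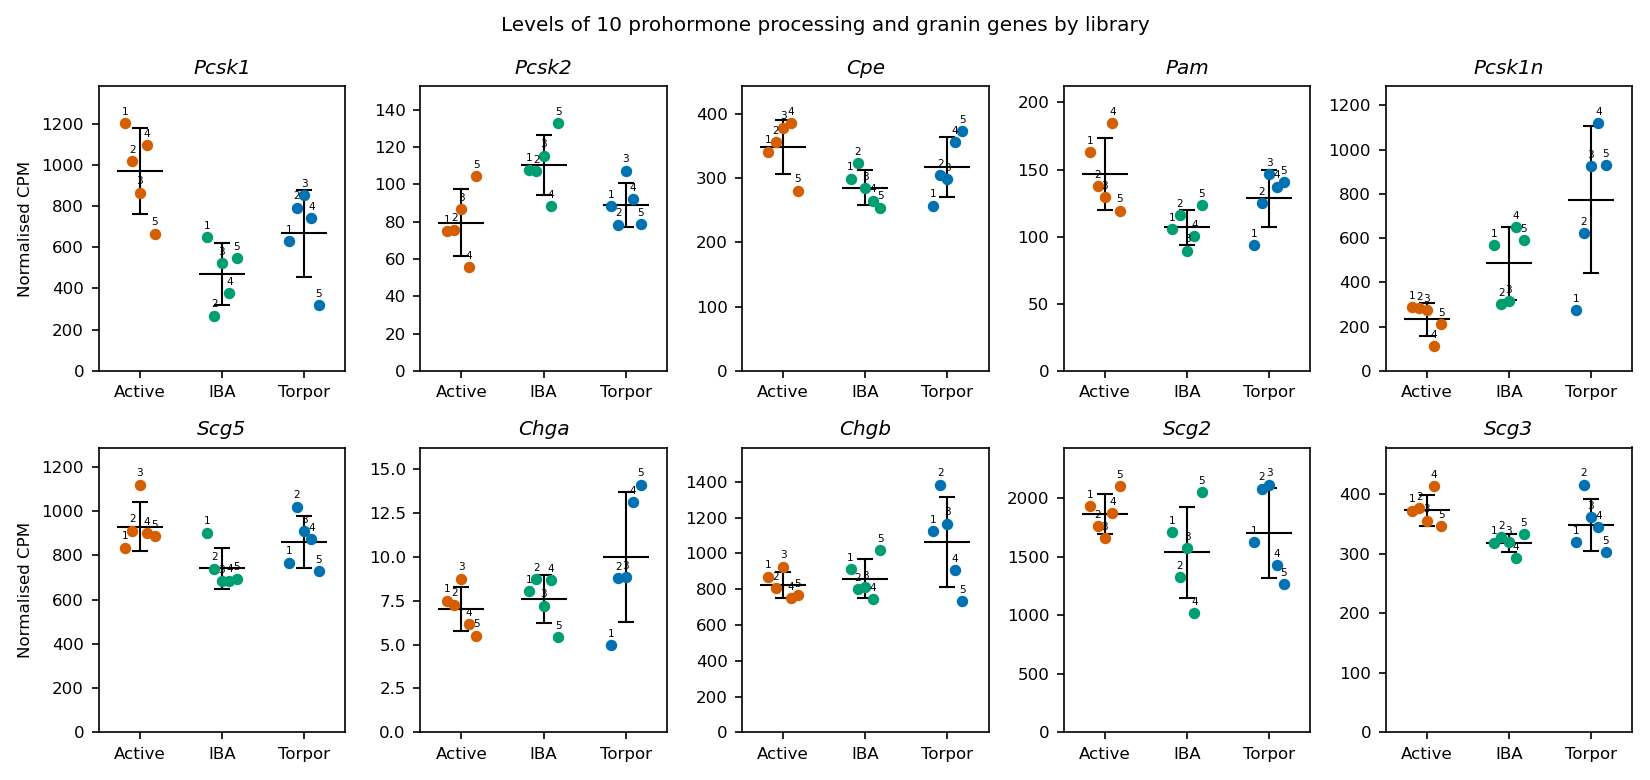
Normalised CPM (linear axes from 0) of the 10 genes in the 5 active, 5 IBA and 5 torpor libraries; points carry the replicate number, and the bars give mean and SD. Every IBA library of Pcsk1 lies below the lowest active library, at 666, and torpor library 1 of Pcsk1n, at 274, lies within the active range.

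Pcsk1 stood at 1202, 1019, 865, 1094 and 666 normalised CPM in active libraries 1 to 5. It stood at 649, 268, 522, 376 and 546 in IBA libraries 1 to 5, and at 629, 793, 853, 743 and 320 in torpor libraries 1 to 5. The IBA libraries did not overlap with the active ones, and the torpor libraries overlapped with both. The state means were 969 ± 209 in active animals, 472 ± 150 in IBA and 668 ± 211 in torpor (SD, n = 5). The log2 difference between IBA and active animals was −1.07 ± 0.28 (SE), with a 95% interval from −1.66 to −0.48, and missed the threshold (limma adjusted p = 0.0679). The corresponding difference for torpor was −0.59 ± 0.28 (adjusted p = 0.152). Between torpor and IBA it was 0.49 ± 0.28 (adjusted p = 0.355). In the authors' deposited table, Pcsk1 had a false discovery rate of 0.0248 in the joint test of the 3 states, with log2 fold changes of −1.04 in IBA and −0.54 in torpor. A long noncoding RNA, LOC110598231, overlaps Pcsk1 in the reference name table, and was listed at 0.283 to 0.982 normalised CPM.

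Pcsk1n stood at 287, 284, 275, 113 and 211 normalised CPM in active libraries 1 to 5. In IBA libraries 1 to 5 it stood at 569, 302, 314, 650 and 592, and in torpor libraries 1 to 5 at 274, 622, 926, 1119 and 929. All IBA libraries lay above all active ones, whereas torpor library 1 lay within the active range. The means were 234 ± 74.7 in active animals, 485 ± 165 in IBA and 774 ± 331 in torpor (SD, n = 5), and the spread in torpor was the widest of any member in any state, with a coefficient of variation of 42.8%. Pcsk1n rose 3.13-fold in torpor against active animals, by 1.65 ± 0.38 on the log2 scale, with a 95% interval from 0.83 to 2.46 (limma adjusted p = 0.00891). In IBA the difference from active animals was 1.05 ± 0.38 with an interval from 0.24 to 1.87 (adjusted p = 0.153). Torpor and IBA differed by 0.60 ± 0.38 (adjusted p = 0.415). The authors' deposited table gave Pcsk1n a false discovery rate of 0.00818 in the joint test.

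Other measures moved with Pcsk1n. The mean log2 level of 13 neuron markers lay between 6.50 and 7.21 in active libraries, between 7.01 and 7.34 in IBA and between 7.24 and 7.49 in torpor, and active library 4, with the least Pcsk1n, had the lowest neuron marker level. None of these markers was at 0 in a library, but they did not move together. Tubb3, Nefl and Gap43 had their lowest active value in active library 4, and Snap25 and Stmn2 had their highest there. With the mean neuron marker level in the model, the torpor difference of Pcsk1n was 0.67 ± 0.35 (limma adjusted p = 0.290). That level did not overlap between torpor and active libraries, so the model cannot separate it from the state. For 12 oligodendrocyte markers, none of them at 0 in a library either, the mean log2 level lay between 6.28 and 7.12 in active libraries, between 6.85 and 7.80 in IBA and between 7.01 and 8.39 in torpor. With it in the model, the difference was 1.61 ± 0.61 (limma adjusted p = 0.138), beside 1.65 ± 0.38 without it. That level overlapped between torpor and active libraries only through torpor library 3, at 7.01, and active library 5, at 7.12. The model therefore separates it poorly from the state. Without torpor libraries 4 and 5 the difference was 1.28 ± 0.42 (adjusted p = 0.0627). The part of cell makeup in the rise was not tested beyond these values.

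Pcsk2, the other granule convertase, and its chaperone Scg5 also stood in opposite orders, with IBA at the extreme of both. Pcsk2 stood at 74.8, 75.6, 86.6, 55.4 and 104 normalised CPM in active libraries 1 to 5. In IBA it stood at 108, 107, 115, 88.2 and 133, and in torpor at 88.3, 78.3, 107, 92.1 and 78.7, in the same order of libraries. The states overlapped, since active library 5 reached into the IBA range. The means were 79.4 ± 17.9 in active animals, 110.2 ± 16.1 in IBA and 88.9 ± 11.9 in torpor (SD, n = 5). The log2 difference was 0.49 ± 0.14 between IBA and active animals and 0.18 ± 0.14 between torpor and active animals (limma adjusted p = 0.0907 and 0.397). Without active library 5 the difference between IBA and active animals was 0.59 (adjusted p = 0.0494). Between torpor and IBA it was −0.30 ± 0.14 (adjusted p = 0.253).

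Scg5 stood at 835, 912, 1119, 900.04 and 885 normalised CPM in active libraries 1 to 5. It stood at 903, 739.6, 683, 685 and 694 in IBA libraries 1 to 5, and at 767, 1021, 911, 873 and 729 in torpor libraries 1 to 5. All IBA libraries but library 1 lay below the lowest active library. The means were 930.4 ± 109.8, 741 ± 93.5 and 860.1 ± 117 in active animals, IBA and torpor (SD, n = 5). The log2 difference was −0.33 ± 0.11 in IBA and −0.12 ± 0.11 in torpor, both against active animals (limma adjusted p = 0.121 and 0.489). Torpor and IBA differed by 0.21 ± 0.11 (adjusted p = 0.302).

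The enzymes that finish the peptide ends had their lowest means in IBA. Cpe lay between 280.0 and 385 normalised CPM in active libraries, between 253 and 323 in IBA and between 257 and 373 in torpor, with means of 348 ± 41.9, 285 ± 27.5 and 317 ± 46.7 (SD, n = 5). Its log2 difference from active animals was −0.28 ± 0.11 in IBA and −0.14 ± 0.11 in torpor (limma adjusted p = 0.174 and 0.422). Pam lay between 119 and 185 in active libraries, between 89.6 and 123 in IBA and between 93.8 and 146 in torpor, with means of 147 ± 26.6, 107 ± 13.1 and 129 ± 21.0. The corresponding differences of Pam were −0.44 ± 0.14 and −0.19 ± 0.14 (adjusted p = 0.0949 and 0.347). The states overlapped for both enzymes, and neither passed a test.

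Among the granins, Chga and Chgb had their highest means in torpor, and Scg2 and Scg3 theirs in active animals, but no difference passed the test. Chga was sparse, at 88 to 301 reads per library, and since the annotation used for counting is not given, whether its gene model holds the whole transcript was not tested, for its level or for its ratio to Chgb. It stood at 5.51 to 8.74 normalised CPM in active libraries, 5.42 to 8.71 in IBA and 4.95 to 14.1 in torpor, where libraries 4 and 5 were high, at 13.1 and 14.1, and library 1 was the lowest of all 15. Its log2 difference between torpor and active animals was 0.39 ± 0.22 (limma adjusted p = 0.217), and 0.59 without torpor library 1 (adjusted p = 0.0336).

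Chgb stood at 871, 807, 926, 749 and 765 normalised CPM in active libraries 1 to 5. In torpor libraries 1 to 5 it stood at 1123, 1384, 1166, 907 and 734, and in IBA it ran from 744 to 1019.6. Torpor libraries 1 to 3 lay above every active library, library 4 within the active range, and library 5 below it. The means were 823 ± 74.3 in active animals, 857 ± 109 in IBA and 1063 ± 249.9 in torpor (SD, n = 5), and torpor differed from active animals by 0.34 ± 0.14 on the log2 scale (limma adjusted p = 0.0940). Without torpor library 5 the difference was 0.46 (adjusted p = 0.0161), and without libraries 4 and 5 it was 0.57 (adjusted p = 0.00545).

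Scg2 lay between 1658 and 2101 normalised CPM in active libraries, between 1017 and 2051 in IBA and between 1266 and 2113 in torpor. Its log2 differences from active animals were −0.32 ± 0.17 in IBA and −0.16 ± 0.17 in torpor (limma adjusted p = 0.314 and 0.552). Scg3 varied least, with a coefficient of variation of 4.84% in IBA and 6.95% in active animals. It stood at 372, 376, 355, 413 and 346 in active libraries 1 to 5 and at 318, 328, 319, 292 and 332 in IBA libraries 1 to 5. No IBA library reached the lowest active library. Its log2 difference of −0.23 ± 0.09, with a 95% interval from −0.41 to −0.04, did not pass (adjusted p = 0.173). In torpor Scg3 ran from 302 to 416, across both ranges.

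The first comparison set torpor against the active state. Of the 10 genes, 1 (Pcsk1n) was higher and none lower, where 9.73% and 9.74% of all genes tested were higher and lower. With scaling by library size alone the split over all genes was 1053 higher and 2273 lower, beside 1508 and 1510, and Pcsk1n was still the only member called. At an unadjusted p under 0.05 there were 2 of 10 (Pcsk1n and Chgb) against 33.8% of all genes, and no member had states without overlap, against 12.2% of all genes. The median log2 difference of the 10 was −0.11, beside 0.01 over all genes tested. Together the 10 genes took 0.588% ± 0.0294 of the reads in active animals, 0.503% ± 0.0660 in IBA and 0.571% ± 0.0739 in torpor (SD, n = 5), values that overlap. The members were chosen with the rise of Pcsk1n already known, so their count is a description.

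The comparison of IBA with the active state sets warm hibernating animals against active ones. None of the 10 genes passed, beside 1.3% of all genes tested. At an unadjusted p under 0.05 there were 7 of 10 (all but Chga, Chgb and Scg2) against 19.7% of all genes. Of those, Pcsk1, Scg5, Cpe, Pam and Scg3 had lower means in IBA, and Pcsk2 and Pcsk1n higher means. States did not overlap for 3 of 10 (Pcsk1, Pcsk1n and Scg3), against 7.01% of all genes. The median of the 10 was −0.26, beside 0.00 over all genes. On recovered whole reads, edgeR's quasi-likelihood test called none of the 10 beside 1.38% of all genes. DESeq2 called 3 beside 5.47%: Pcsk1 with a log2 difference of −1.04 (adjusted p = 0.00189), Pam with −0.46 (adjusted p = 0.0340) and Pcsk2 with 0.47 (adjusted p = 0.0457).

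The comparison of torpor with IBA sets the cold phase of hibernation against its warm phase. None of the 10 genes passed, beside 2.94% of all genes, and 1 (Pcsk2) had an unadjusted p under 0.05, against 19.4% of all genes. Neither edgeR nor DESeq2 called a member, beside 3.09% and 6.66% of all genes, and no member had states without overlap, against 5.76%. The mean was higher in torpor for 9 of 10, all but Pcsk2, and the median of the 10 was 0.23, beside 0.00 over all genes. The comparisons with IBA and with the active state share libraries, so their values are not independent.

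**Figure D2:**
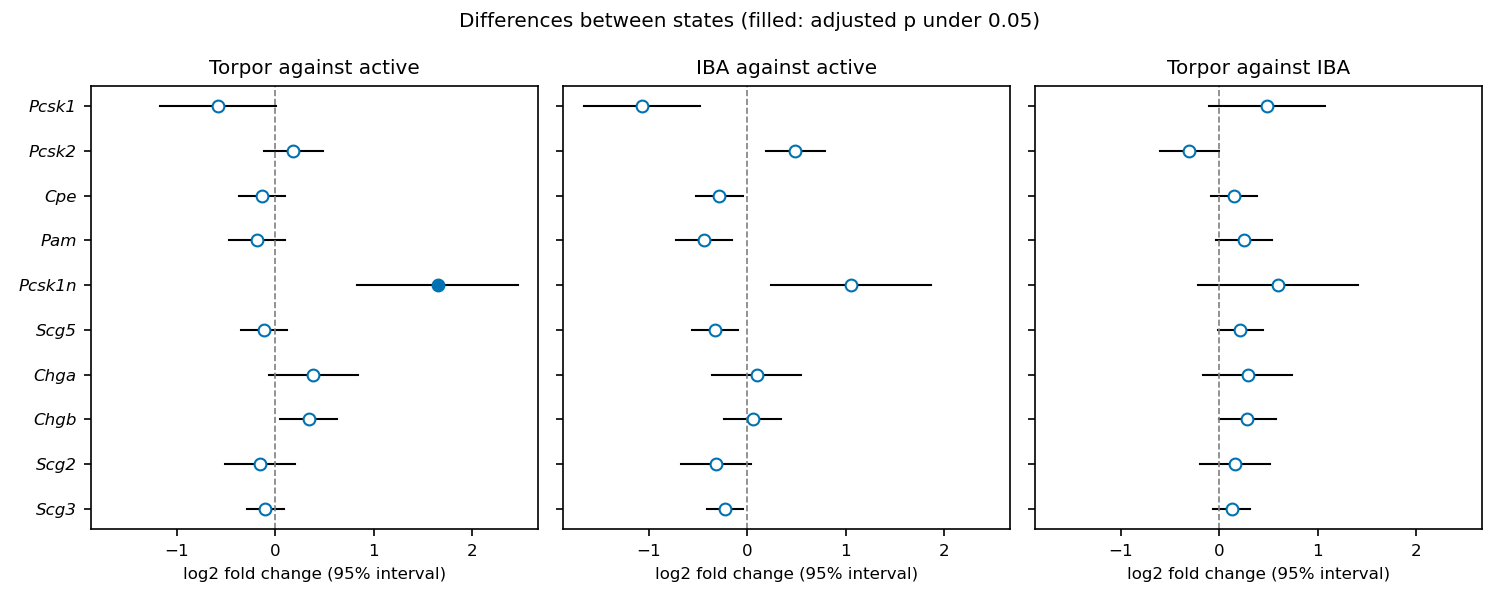
Log2 fold changes (points) with 95% intervals (lines) from limma-trend for the 10 genes in the 3 comparisons, each fitted with all 15 libraries; a filled point marks an adjusted p under 0.05. The only filled point is Pcsk1n in torpor against active, at 1.65, and in IBA against active the interval of Pcsk1 runs from −1.66 to −0.48.

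The balance of each convertase and its partner was followed within each library as a log2 ratio of normalised CPM, with 1 added to each level. The ratio of Pcsk1n to Pcsk1 was higher in both hibernation states than in active animals. It stood at −2.06, −1.84, −1.65, −3.27 and −1.66 in active libraries 1 to 5. In IBA libraries 1 to 5 it stood at −0.19, 0.17, −0.73, 0.79 and 0.12, and in torpor libraries 1 to 5 at −1.19, −0.35, 0.12, 0.59 and 1.53. No library of either hibernation state fell within the active range. The ratio differed from active animals by 2.13 in IBA and by 2.23 in torpor (two-sided exact permutation test, p = 0.00794 for each, the smallest that 5 libraries against 5 can give, and 0.0179 after Benjamini-Hochberg adjustment over the 9 ratio tests). The mean ratio was −2.09 ± 0.68 in active animals, 0.03 ± 0.55 in IBA and 0.14 ± 1.02 in torpor (SD, n = 5). Torpor and IBA differed by 0.11 (exact permutation p = 0.841, adjusted 0.984). Without torpor libraries 4 and 5 the torpor difference from active animals was 1.62 (adjusted p = 0.0402). Since the levels of Pcsk1n and Pcsk1 in these libraries were known when the ratio was chosen, these p-values are not independent evidence.

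**Figure D3:**
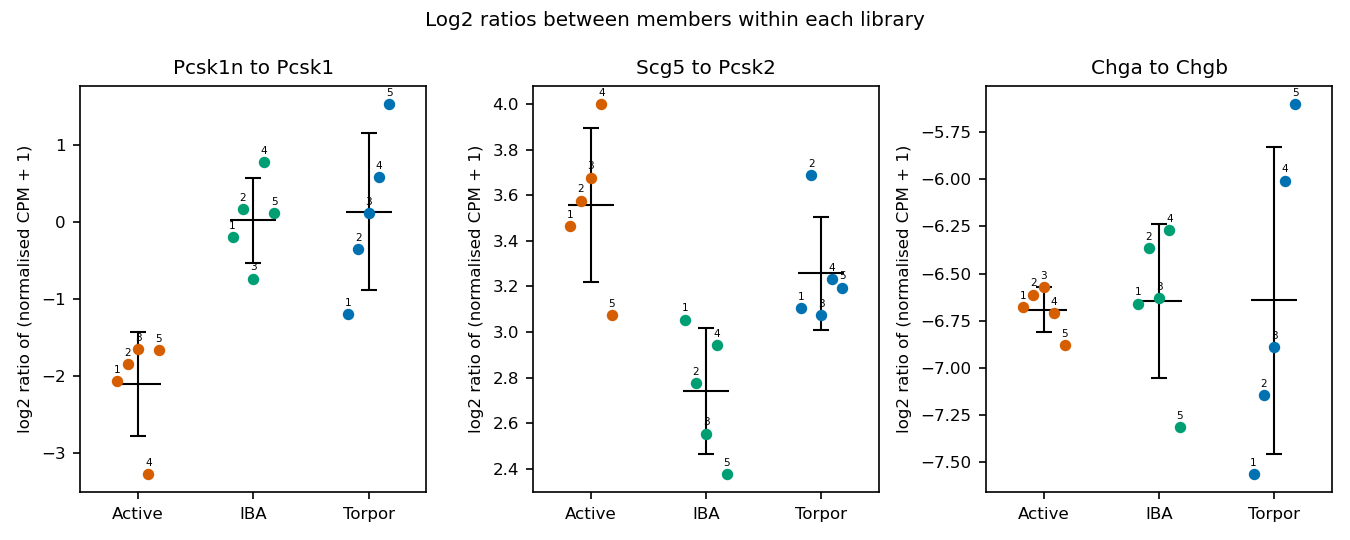
Log2 ratios of (normalised CPM + 1) between 2 genes within each library, with replicate numbers and bars for mean and SD (n = 5 per state); the axes do not start at 0. For Pcsk1n to Pcsk1 every IBA and torpor library lies above the highest active library, at −1.65, and for Scg5 to Pcsk2 every IBA library lies below every library of the other states.

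The ratio of Scg5 to Pcsk2 was lower in IBA than in both other states. It stood at 3.46, 3.58, 3.68, 4.00 and 3.07 in active libraries 1 to 5. In IBA libraries 1 to 5 it stood at 3.05, 2.78, 2.56, 2.94 and 2.38, and in torpor libraries 1 to 5 at 3.11, 3.69, 3.07, 3.23 and 3.20. The gap between IBA and the others was narrow, since the highest IBA library was at 3.05 and the lowest active and torpor libraries at 3.07. The means were 3.56 ± 0.34 in active animals, 2.74 ± 0.28 in IBA and 3.26 ± 0.25 in torpor (SD, n = 5). IBA differed from active animals by −0.82, and torpor from IBA by 0.52 (exact permutation p = 0.00794 for each, adjusted 0.0179). Torpor and active animals differed by −0.30 (exact permutation p = 0.175, adjusted 0.314). This ratio too was chosen with earlier results of these data known, so its p-values are not independent evidence. The call between torpor and IBA was lost without torpor libraries 4 and 5, where the difference was 0.55 (adjusted p = 0.0643). It was also lost without torpor library 2, at 0.41 (adjusted p = 0.0536). In both cases the torpor libraries that were kept still lay above every IBA library. Without libraries 4 and 5 the permutation test has fewer arrangements, so that loss does not show that this pair carried the difference. Every omission of a single library leaves equally many arrangements. Among these only that of torpor library 2, the highest torpor library at 3.69, lost the call, and it gave the smallest difference. The call between torpor and IBA thus depended on torpor library 2.

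The ratio of Chga to Chgb did not differ between states beyond its spread. Its means were −6.69 ± 0.12 in active animals, −6.65 ± 0.41 in IBA and −6.64 ± 0.81 in torpor (SD, n = 5), with exact permutation p from 0.897 to 0.984. The torpor libraries were the most spread, from −7.56 in library 1 to −5.61 in library 5. Without torpor libraries 4 and 5 the ratio in torpor differed from active animals by −0.51 (adjusted p = 0.0402).

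Within states, the members did not vary as a single block. Likeness was measured as Pearson's r of deviations from the state means of log2(value + 1) over the 15 libraries, as a description. Over the 45 pairs of members r ran from −0.56 to 0.81 with a median of 0.16. Scg2 and Chgb were alike (0.74), and Pcsk1 varied with Chgb (0.65), Scg2 (0.61) and Scg3 (0.58). Chga varied with Cpe (0.81) and with Pcsk1n (0.63), and against Scg2 (−0.56) and Chgb (−0.51). Pcsk1 and Pcsk1n varied almost independently (0.08). Cell makeup varied within states as well, since the summed level of the oligodendrocyte markers ran from 4316 to 14612 normalised CPM over the torpor libraries, and its part in these values was not tested.

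**Figure D4:**
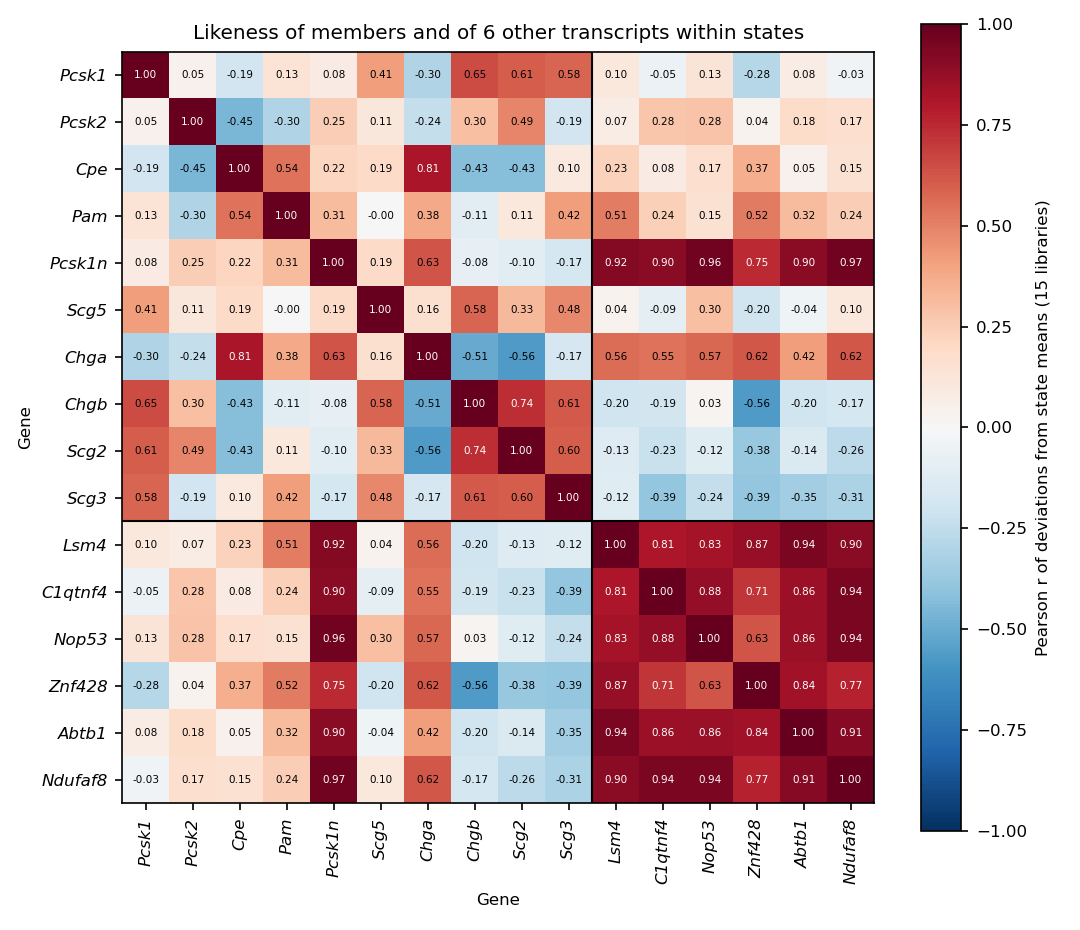
Pearson's r of deviations from the state means over 15 libraries for the 10 genes and 6 other transcripts; colour and number give r, and the black lines separate the members from the others. Pcsk1n reaches 0.97 with Ndufaf8 and 0.96 with Nop53, which were picked for sharing its pattern, against 0.08 with Pcsk1.

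Of 11446 other genes with a symbol and a mean log2 level of at least 2, the ones most like each member were as follows. Pcsk1n was most like Ndufaf8, an assembly factor of respiratory complex I (0.97), Nop53, a ribosome assembly factor (0.96), and Srm, spermidine synthase (0.96). Pcsk1 was most like Syt4, a synaptotagmin of granules and vesicles (0.88). Scg2 was most like Scn3a, a voltage-gated sodium channel gene (0.90). Scg5 was most like Rnasek (0.94), Chgb like Prune2 (0.93), Chga like Arl2 (0.92), Pam like Smarcd1 (0.91), Scg3 like Nop56 (0.91), Cpe like Trip10 (0.90) and Pcsk2 like Sf3b2 (0.90). These are the highest of many values over 15 libraries and carry no test.

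Pcsk1n stood with a set of 6 transcripts already known from these data to share its pattern, namely Lsm4, C1qtnf4, Nop53, Znf428, Abtb1 and Ndufaf8. Its r with them ran from 0.75 (Znf428) to 0.97 (Ndufaf8), whereas Pcsk1 had r from −0.28 to 0.13. All 6 rose in torpor against active animals, beside 9.73% of all genes tested, and C1qtnf4 and Nop53 also in IBA. The 6 were picked for their likeness to Pcsk1n, so their r and their rise with it follow from that choice and are no test. In IBA, Ndufaf8 stood at 19.2, 30.1 and 18.7 normalised CPM in libraries 1, 4 and 5 and at 10.97 and 9.90 in libraries 2 and 3, where Pcsk1n was low too. The mean log2 level of the 6 lay between 1.69 and 2.71 in active libraries, between 2.96 and 4.43 in IBA and between 3.23 and 5.10 in torpor. What these transcripts share was not tested.

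**Figure D5:**
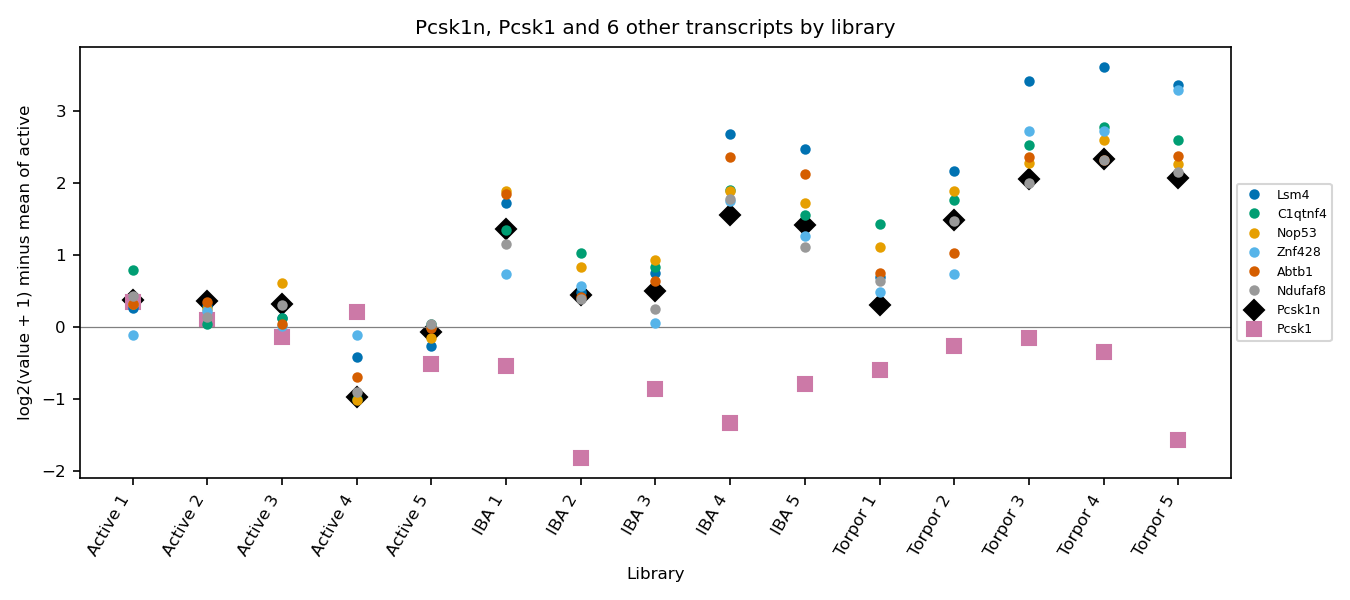
Log2(value + 1) minus the mean of the active libraries for Pcsk1n (black diamonds), Pcsk1 (pink squares) and 6 other transcripts (circles) in each of the 15 libraries, which have no order within a state. In torpor library 1 Pcsk1n and each of the 6, which were picked for sharing its pattern, have their lowest torpor value. Pcsk1 has its lowest in torpor library 5.

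Around the 10 genes, other parts of the peptide pathway were followed in lists chosen with earlier results of these data known. Their counts stand beside the 9.73% of all genes that were higher and 9.74% that were lower in torpor against active animals, with a median log2 difference of 0.01, and 1.3% that passed in IBA. On that background 2 of 18 or 1 of 10 is near the share over all genes. Of 10 measured convertases and carboxypeptidases of other pathways, 1 fell in torpor against active animals, the membrane carboxypeptidase gene Cpm, by 0.79 ± 0.20 to 2.95 ± 0.942 normalised CPM from 5.72 ± 1.01 (limma adjusted p = 0.0106). The list had a median log2 difference of 0.12, and none passed in the other comparisons. In IBA, Mbtps1, which encodes site-1 protease, and Cpd, which encodes carboxypeptidase D, had log2 differences of 0.29 ± 0.09 and 0.41 ± 0.13 (adjusted p = 0.0973 and 0.116). Of 10 genes of cofactor supply and granule acidity, Slc31a1, the copper importer, fell in torpor by 0.40 ± 0.11 (adjusted p = 0.0194), and Qpct, which cyclises N-terminal glutamine in peptides, rose by 0.36 ± 0.12 (adjusted p = 0.0377). That list had a median of 0.16 in torpor, and none passed in IBA.

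Of 18 genes of granule biogenesis and sorting, 2 fell and none rose in torpor against active animals (median 0.08). Ccdc186, a coiled-coil protein of granule maturation, fell by 0.64 ± 0.11 to 49.3 ± 8.18 from 76.8 ± 6.15 (limma adjusted p = 0.00132), and Rundc1 by 0.41 ± 0.14 (adjusted p = 0.0416). Of 24 genes of the granule membrane and release machinery, 2 rose and 1 fell (median 0.03). Rab3a and Rab3b, small GTPases of vesicles, rose by 1.28 ± 0.35 and 0.50 ± 0.14 (adjusted p = 0.0214 and 0.0187), and their relative Rab3d fell by 0.67 ± 0.16 (adjusted p = 0.00826). In IBA none of either list passed, and Syt4, the gene most like Pcsk1, stood at 247 ± 66.4 against 368 ± 55.7 in active animals (−0.61 ± 0.18, adjusted p = 0.0937).

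Of 14 other granule cargo genes, 3 rose and 1 fell in torpor against active animals (median 0.15). Npdc1 rose by 1.06 ± 0.21 and the neuronal pentraxins Nptx2 and Nptx1 by 0.99 ± 0.24 and 1.03 ± 0.33 (limma adjusted p = 0.00284, 0.00777 and 0.0397). Gnas, whose locus also encodes the granin-like NESP55, fell by 0.33 ± 0.11 (adjusted p = 0.0484). None passed in IBA, where Resp18, a granule protein of endocrine cells, stood at 303 ± 34.2 against 416 ± 55.8 in active animals (adjusted p = 0.127). Of 22 neuropeptide precursors, on which these enzymes act, 5 rose and 1 fell in torpor (median 0.65). The precursor genes Sst and Pomc rose by 1.27 ± 0.33 and 0.81 ± 0.21 (adjusted p = 0.0150 and 0.0131). The growth hormone releasing hormone gene Ghrh, at 1.45 ± 0.246 against 0.617 ± 0.332, was called higher as well, and Tac1 and Cck completed the rises. Ghrh was near the floor, at 4 to 24 reads in active libraries and 24 to 38 in torpor. It passed the filter on low values through torpor, where its lowest library was at 1.18. Its highest active and IBA libraries were at 1.08 and 0.883. The count of rises thus includes a gene that was tested only through the state where it is high. The torpor libraries were uneven, with the summed level of the 22 precursors at 998 in library 1 and 2611 in library 4. Over the active libraries that sum ran from 599 to 1193. The part of the tissue dissected in these rises was not tested. Npff, the neuropeptide FF precursor, fell by 0.77 ± 0.17 to 3.72 ± 0.872 from 6.98 ± 1.09 (adjusted p = 0.00496), and it was also lower in torpor than in IBA (−0.72 ± 0.17, adjusted p = 0.0300).

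Of 15 transcription factors known for granule or magnocellular genes, 6 fell and none rose in torpor against active animals, and 3 fell in IBA, with medians of −0.42 and −0.05. Crem, a factor of the cyclic AMP response, fell to 17.3 ± 1.74 normalised CPM in torpor and 17.2 ± 2.88 in IBA from 38.1 ± 13.9 in active animals (log2 differences −1.03 ± 0.20 and −1.04 ± 0.20, limma adjusted p = 0.00207 and 0.0204). Xbp1, a factor of the secretory and unfolded protein programmes, fell by 0.68 ± 0.12 in torpor and 0.63 ± 0.12 in IBA (adjusted p = 0.00131 and 0.0204). Atf4, of the integrated stress response, fell by 0.50 ± 0.11 and 0.56 ± 0.11 (adjusted p = 0.00467 and 0.0208). Pou3f2, a factor of magnocellular development, fell by 0.77 ± 0.14 in torpor (adjusted p = 0.00125), and Creb3l2 and Creb1 were the others. None of the 15 passed between torpor and IBA.

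Markers of other cells moved in the same libraries. Of 13 neuron markers 3 rose and 1 fell in torpor against active animals (median 0.34), of 12 oligodendrocyte markers 9 rose (median 1.22), and of 8 microglia markers 2 rose (median 0.42). Of 8 astrocyte markers 1 fell (median −0.27), and of 9 endothelial markers 3 fell (median −0.35). Over all genes tested 9.73% rose and 9.74% fell, and 1 of 8 or 1 of 13 is near that share. In IBA against active animals 1 astrocyte marker, Fgfr3, fell. No marker of the neuron, oligodendrocyte, microglia or endothelial lists passed there, where 1.3% of all genes did. Between torpor and IBA 1 microglia marker was higher and 3 endothelial markers lower in torpor, beside 0.961% and 1.97% of all genes. Their part in the values of the 10 genes was not tested, beyond the models with neuron and oligodendrocyte levels.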

How the data were processed

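RNA of the supraoptic nucleus was sequenced in 15 libraries of 3 states. Per the submitters' processing notes, the tools included Trimmomatic 0.39, STAR 2.7.7a, featureCounts of Subread 2.0.1 and edgeR 3.38.4. Neither the genome build nor the strand setting is given in the sources used here. The authors deposited a normalised CPM signal per library, beside log2 fold changes against active animals, a log2 mean level, an F score and a p-value adjusted as a false discovery rate, per the file headers. Whole reads were recovered, with 100% of values within 0.1 of a whole read. Because the table holds normalised values, limma-trend (limma 3.58.1, R 4.3.3, trend and robust settings) was run on log2(value + 1) for all 15 libraries together, without covariates, on the 15501 genes that reached 1 in 5 or more libraries (1492 removed). A Benjamini-Hochberg adjusted p under 0.05, two-sided, was the call. Log2 ratios were compared with exact permutation tests. Alternatives were edgeR 4.0.16, DESeq2 1.42.0, other pseudocounts, filters, scaling and covariates, a replicate block and leaving out libraries. The procedure was tested on simulated data. Members, lists, ratios and tests were chosen with earlier results of these data known. The genes named are the 10 members, in each list up to 4 that passed with the smallest p (up to 2 where none passed) and the genes most like each member; Otp, Sim1, Pdyn, Tac1, Cck, Creb3l2 and Creb1 were named after their values were seen. The design text calls the replicates biological, and p-values reflect the spread between libraries.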

Additional observations from a re-analysis of the deposited data

Results flagged for a closer look

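In 39 groups of 5 values (10 genes and 3 ratios in 3 states), 4 had a library whose gap to the nearest other, as a share of the group's range, exceeded Dixon's critical value of 0.71, and about 1 in 20 groups does so by chance. Scg5 stood at 1119 normalised CPM in active library 3, above the other active libraries, which reached 912. Scg5 stood at 903 in IBA library 1, above the other IBA libraries, which reached 739.6. The log2 ratio of Pcsk1n to Pcsk1 stood at −3.27 in active library 4, below the other active libraries, the lowest of which was at −2.06. The log2 ratio of Scg5 to Pcsk2 stood at 3.69 in torpor library 2, above the other torpor libraries, which reached 3.23.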

How the results depend on the processing

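The tests called 3018, 202 and 455 genes in torpor against active, IBA against active and torpor against IBA, and 1, 0 and 0 members. Pcsk1n kept its call in torpor against active with each single library left out (1.41 to 1.98, limma adjusted p 0.00115 to 0.0253), and lost it with the neuron and oligodendrocyte covariates and without torpor libraries 4 and 5 (an omission chosen after seeing the data, as was the companion covariate). With the oligodendrocyte covariate its difference stayed near the main one and the SE grew, but that covariate is poorly separated from the state. Over the alternatives for Pcsk1n, the companion covariate included, the adjusted p ran from 1.04e-04 to 0.521. Fitting only the 10 libraries compared called 385 genes in IBA against active, with 1 member (Pcsk1, adjusted p = 0.0410), and 262 in torpor against IBA. DESeq2 called 848 and 1033, with 3 members in the former. Library size alone called 859 in torpor against IBA. The oligodendrocyte covariate called 775, 21 and 745 in the order above, with 1 member, Chgb, higher in torpor against active. It called 2 members in torpor against IBA (Pcsk1 0.90 and Chgb 0.45, limma adjusted p = 0.0136 and 0.0422). It turned Pcsk1 to 0.40, Scg5 to 0.10, Scg2 to 0.38 and Scg3 to 0.11 in torpor against active, and Chga to −0.0720 in IBA. The neuron covariate called 724 genes and 0 members in torpor and 69 genes in IBA, both against active, and turned Pcsk2 to −0.10 and Scg3 to 0.00387 in torpor and Chga to −0.00138 in IBA. The companion covariate, the mean of 6 transcripts picked for their likeness to Pcsk1n, takes out the difference of Pcsk1n by construction and is no test of it. It called 55, 15 and 180 genes and 0 members in torpor against active. It turned Pcsk1n to −0.29, −0.15 and −0.14 in the 3 comparisons, Chga to −0.29 in torpor and −0.32 in IBA, and Scg2 to 0.0558 and Scg3 to 0.0183 in torpor. Without torpor libraries 4 and 5, 1 member, Chgb, was called in torpor against active and also against IBA (0.52 against IBA, limma adjusted p = 0.0278). With the same omission Scg2 turned to 0.0506 against active and Chga to −0.0344 against IBA. There the ratio of Pcsk1n to Pcsk1 turned to −0.51 against IBA, that of Chga to Chgb to −0.51 against active and −0.55 against IBA, and that of Scg5 to Pcsk2 was 0.55 against IBA. With a pseudocount of 5 the Chga to Chgb ratio turned to −0.0550 and −0.0671 in torpor, against active and IBA. The causes were not tested.

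Leaving out single libraries gave 2278 to 3315, 26 to 162 and 159 to 670 genes and 1 to 2, 0 to 1 and 0 to 0 members, and turned Chgb to −0.0108 in IBA against active without IBA library 5. In the same order of comparisons, the ratio of Pcsk1n to Pcsk1 ran from 1.89 to 2.57, from 1.83 to 2.32 and from −0.24 to 0.44. That of Scg5 to Pcsk2 ran from −0.42 to −0.19, from −0.94 to −0.71 and from 0.41 to 0.60, and that of Chga to Chgb from −0.21 to 0.28, from −0.0511 to 0.21 and from −0.25 to 0.24. Replicate numbers did not pair the libraries: r of same-numbered deviations ran from −0.32 to 0.20 over 15 pairs, and 4 of 15 libraries correlated best with their own number. With the replicate block 2285, 37 and 155 genes and 1, 0 and 0 members were called, and Pcsk1n was at 1.65 (adjusted p = 0.0257). Chga, with 88 to 301 reads per library, is the member whose depth limits its precision most.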
